A study of Mus musculus with 22 samples.

Results

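The oogenesin genes *Oog1*, *Oog2*, *Oog3* and *Oog4* were followed through RNA-seq of mouse oocytes at the germinal vesicle (GV) stage, fully grown but with the nucleus still intact. They were chosen by their GENCODE symbols and are 4 of the 52636 genes in the count table, and all 4 were tested in both sequencing runs. Each sample was a pool of C57BL/6 oocytes, and the study addressed the loss of RNA interference (RNAi), alone or with the loss of the piRNA pathway. The single-end run (50-nt reads) held 3 wild-type samples (*Dicer* WT/WT), 4 of homozygous *Dicer* ΔMT/ΔMT oocytes (below, ΔMT/ΔMT), 3 of homozygous *Dicer* SOM/SOM oocytes (SOM/SOM) and 1 sample of the heterozygous *Dicer* ΔMT/WT genotype, whose ages the labels leave blank. The paired-end run (75-nt reads) held heterozygous controls (*Mili* DAH/WT with *Dicer* SOM/WT) aged 36, 38, 10 and 17 weeks (replicates 1 to 4), RNAi mutants (*Mili* DAH/WT with *Dicer* SOM/SOM) aged 17 and 13 weeks, double mutants (*Mili* DAH/DAH with *Dicer* SOM/SOM) aged 40, 35, 11 and 11 weeks, and 1 piRNA mutant (*Mili* DAH/DAH with *Dicer* SOM/WT) aged 16 weeks. Every sample of the paired-end run, controls included, thus carried at least 1 *Dicer* SOM and 1 *Mili* DAH allele.

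The ΔMT deletion removes the LTR promoter of the short oocyte isoform of Dicer, but a further LTR can still drive a short isoform in that line. The SOM allele, made in an embryonic stem cell line from which the mouse line was founded, lacks introns 2 to 6 and encodes HA-tagged full-length Dicer. DAH is a point mutation in the catalytic triad of MILI, so the mRNA level of its gene does not check the label. The labels do not say whether the replicates came from separate females, so p-values measure only the spread between these samples.

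Oogenesins are leucine-rich proteins of the PRAME-like family, whose genes lie in clusters of recent copies in the mouse genome. Their mRNAs accumulate in growing oocytes, and Oog1 protein is known from oocytes and early cleavage-stage embryos, where it was found in nuclei and to bind proteins of the Ras pathway. In mouse oocytes, Dicer cuts double-stranded RNA into endogenous siRNAs that guide the cleavage of complementary mRNAs, while MILI is a PIWI protein that works with piRNAs.

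*Oog1* (ENSMUSG00000096576.2) lies alone among the members on chromosome 12 (GRCm38 chr12:87602688-87608850, plus strand). The other members lie on chromosome 4: *Oog2* (ENSMUSG00000066030.6, chr4:144190729-144196934, plus strand), *Oog3* (ENSMUSG00000050810.8, chr4:144157557-144162663, minus strand) and *Oog4* (ENSMUSG00000047799.15, chr4:143437164-143450324, minus strand). In GENCODE M21, their coding transcripts have 4, 5, 4 and 4 exons, and the translated coding sequences have 496, 476, 500 and 502 residues. Leucine makes up 17.4% (*Oog2*) to 17.8% (*Oog3*) of the residues, and the leucine-rich signature LxxL occurs 23, 23, 25 and 19 times. Coding identity between members ran from 73.9% (*Oog2* and *Oog4*) to 80.6% (*Oog1* and *Oog3*), and identity of the translated sequences from 55.3% to 66.5% for the same pairs.

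*Oog1* and *Oog4*, on different chromosomes, share an exact coding stretch of 63 bases, which is the longest run that any 2 members have in common. It is shown, 5′ to 3′, because it is the only place where a 50-nt read could fit both without a mismatch, with the matching stretch of the other members beneath. Capitals mark the 47 bases that all 4 members share. The *Oog2* stretch differs from that of *Oog1* at 12 bases and the *Oog3* stretch at 10.
Oog1, coding bases 77 to 139: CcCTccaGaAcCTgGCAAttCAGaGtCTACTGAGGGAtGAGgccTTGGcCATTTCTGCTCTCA
Oog2, coding bases 23 to 85: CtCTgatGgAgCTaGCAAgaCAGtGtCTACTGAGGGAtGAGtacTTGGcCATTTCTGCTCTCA
Oog3, coding bases 80 to 142: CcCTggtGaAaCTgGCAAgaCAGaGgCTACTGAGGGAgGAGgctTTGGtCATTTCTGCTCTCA
Oog4, coding bases 77 to 139: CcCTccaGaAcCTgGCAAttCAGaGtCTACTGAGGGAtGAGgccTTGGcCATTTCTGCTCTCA

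The RefSeq promoter windows (GRCm38.p6, 250 bases before to 50 after each start) were found for all 4 members and were 74.4% (*Oog1* and *Oog2*) to 83.6% (*Oog1* and *Oog4*) identical. They hold, in the same order, 5 blocks of at least 8 bases that all 4 members share, within a stretch of 97 to 98 bases that ends 11 to 35 bases before the start. The stretch is printed 5′ to 3′ on the gene's strand with the blocks in capitals, because it holds all 5 blocks. By definition the blocks are common to all 4 members, and whether promoter sequence bears on the levels of the members was not tested.
Oog1, chr12:87602557-87602654 plus strand: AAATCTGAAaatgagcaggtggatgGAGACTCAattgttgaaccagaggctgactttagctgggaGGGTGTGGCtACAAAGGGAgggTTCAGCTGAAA
Oog2, chr4:144190585-144190682 plus strand: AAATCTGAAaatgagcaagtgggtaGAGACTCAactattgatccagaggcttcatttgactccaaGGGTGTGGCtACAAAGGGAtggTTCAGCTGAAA
Oog3, chr4:144162685-144162781 minus strand: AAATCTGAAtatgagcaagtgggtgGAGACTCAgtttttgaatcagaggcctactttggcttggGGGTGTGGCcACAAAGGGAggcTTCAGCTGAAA
Oog4, chr4:143450357-143450454 minus strand: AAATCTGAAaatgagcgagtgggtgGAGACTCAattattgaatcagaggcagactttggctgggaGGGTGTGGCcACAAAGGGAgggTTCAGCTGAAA
Of 32851 RefSeq promoter windows, searched on both strands, AAATCTGAA is in 0.426%, GAGACTCA in 1.43%, GGGTGTGGC in 1.35%, ACAAAGGGA in 0.493% and TTCAGCTGAAA in 0.0517% (17 windows, the 4 members included). The blocks are not particular to the oogenesins. Of 38 windows of other PRAME-like genes, 6, 4, 12, 3 and 3 hold them, in the same order. The last block includes an E-box (CANNTG, here CAGCTG). E-boxes were found 3, 4, 3 and 2 times in the windows of *Oog1* to *Oog4*, and 72.3% of all windows hold at least 1. TAATTG, a homeobox motif, was found in *Oog3* and *Oog4* (8.0% of all windows), TATAAA in *Oog2* and *Oog3* (13.6%), and TAATTA in none of the 4 (5.29%).

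Reads of these genes are shared with close copies, since a read that fits several places was divided between them. Of the 50-base windows of each GENCODE transcript, 3.25% were found in no other gene for *Oog1*, 54.8% for *Oog2*, 80.3% for *Oog3* and 99.2% for *Oog4*. With 75-base windows, the shares were 6.02%, 69.0%, 86.4% and 100%. By exact match to annotated transcripts, almost all *Oog4* windows are thus its own at both read lengths. Almost all *Oog1* windows also fit other genes, so its level is almost wholly a share of divided reads. Matches with mismatches and places outside annotated transcripts were not searched. The *Oog4* transcript has 1817 bases against a counted gene length of 1981. How many *Oog4* reads were divided was therefore not measured.

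**Figure D1:**
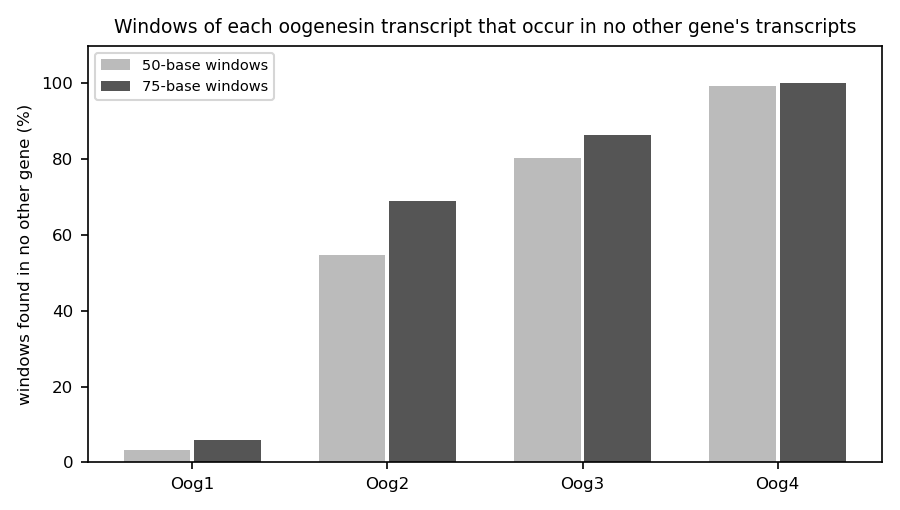
Share of 50-base (light) and 75-base (dark) windows of each oogenesin transcript that occur in the transcripts of no other gene, in percent of all windows of the transcript. *Oog1* has 3.25% and 6.02% such windows, *Oog4* 99.2% and 100%.

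*Oog1* shared 94.8% of its 50-base windows with *Gm2042*, 62.3% with *Gm10436*, 20.5% with *Gm13023* and 18.7% with *C87977*, and these 4 are copies at least 95% identical over at least 50% of its transcript (99.8%, 99.1%, 95.9% and 95.2%). *Oog2* has 2 copies by that measure, *Gm13084* (98.0%) and *Gm7201* (95.02%), which hold 40.7% and 11.5% of its windows, and it shared 0.696% with *Gm13100* and 0.161% with *Gm13058*. *Oog3* shared 18.9% of its windows with *Gm4350*, 1.1% with *Gm13088* and 0.826% with *Gm13103*. *Oog4* shared 0.792% each with *C87977*, *Gm2042* and *Oog1* and 0.170% with *Gm13023*. *Oog3* and *Oog4* have no copy by the 95% measure.

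Total counts per sample ran from 6468380 (SOM/SOM replicate 3) to 90713013 in the single-end run and from 22928936 to 43540806 in the paired-end run. At these depths 3 counts correspond to at most 0.464 CPM (counts scaled to a library total of 1e6), a floor that covers counting error only, and no member was below 248 CPM in any sample. *Dicer1* was at 1014 ± 29.7 CPM in wild type (SD, n = 3), 486 ± 44.8 in ΔMT/ΔMT (n = 4) and 49.4 ± 6.87 in SOM/SOM (n = 3), and at 639.8 ± 110.3 in heterozygous controls (n = 4), 58.0 ± 5.87 in RNAi mutants (n = 2) and 57.7 ± 3.24 in double mutants (n = 4). *Piwil2*, the gene of MILI, was at 5.87 ± 2.99 CPM in heterozygous controls and 5.98 ± 2.29 in double mutants. The 12 oocyte markers summed to 12753 to 16290 CPM per sample, against 75.8 to 142 for 10 granulosa and cumulus markers, 72.2 to 147 for 6 B cell markers and 0.167 to 1.43 for 3 testis germ cell markers. In every genotype group, only 3 of the granulosa and cumulus markers and 2 of the B cell markers were above 5 CPM in all samples. These sums thus rest on few genes and do not measure the content of those cells. Libraries also differed in *Gm42418*, a gene that holds ribosomal RNA sequence. It lay between 4086 and 5503 CPM in 6 paired-end libraries (controls 1 and 4, both RNAi mutants, double mutants 1 and 3) and between 294 and 557 in the other 5, and SOM/SOM replicates 1 and 3 had 12719 and 17284 CPM against at most 7569 in the other single-end libraries.

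All members were abundant mRNAs. Per length (RPKM, CPM per kilobase of the gene length in the table), wild-type oocytes held 298 ± 21.9 RPKM of *Oog4*, 242 ± 13.2 of *Oog3*, 208 ± 6.05 of *Oog2* and 199.98 ± 9.57 of *Oog1* (SD, n = 3). *Oog4* ranked 124, *Oog3* 171, *Oog2* 202 and *Oog1* 211 from the top of 23151 tested genes. In this order *Oog4* did not overlap with *Oog3*, nor *Oog3* with *Oog2*, whereas the samples of *Oog2* and *Oog1* overlapped. In heterozygous controls (n = 4), *Oog3* was at 381 ± 93.0 RPKM, *Oog4* at 358 ± 58.0, *Oog1* at 244 ± 58.7 and *Oog2* at 205 ± 27.9, and all neighbours in this order overlapped. With the coding length in place of the gene length, which for *Oog1* is longer than its coding transcript, *Oog1* came before *Oog3* and *Oog2* in wild type, at 329, 299.8 and 279 RPKM. Because its reads are divided with its copies, the *Oog1* level depends on the counting as well as on the length.

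*Oog4* mRNA was higher in every sample with homozygous *Dicer* mutation than in any wild-type or heterozygous control sample of the same run. In CPM within each run, *Oog4* was at 605, 542 and 626 in wild type, at 1156, 1104, 1035 and 1079 in ΔMT/ΔMT and at 1119, 1571 and 968 in SOM/SOM replicates 1 to 3. Both homozygous groups lay above wild type without overlap, and SOM/SOM replicate 2 stood above all others. In the paired-end run, *Oog4* was at 553, 788, 802 and 691 CPM in heterozygous controls, at 1647 and 1729 in RNAi mutants and at 1371, 2013, 1689 and 2364 in double mutants. The lowest double mutant was above the highest control, and the values of the RNAi mutants lay within the range of the double mutants. In neither run was the share of all tested genes without overlap between these groups counted. As each sample is a pool of oocytes, a higher level in all of its oocytes and in only some of them cannot be told apart.

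**Figure D2:**
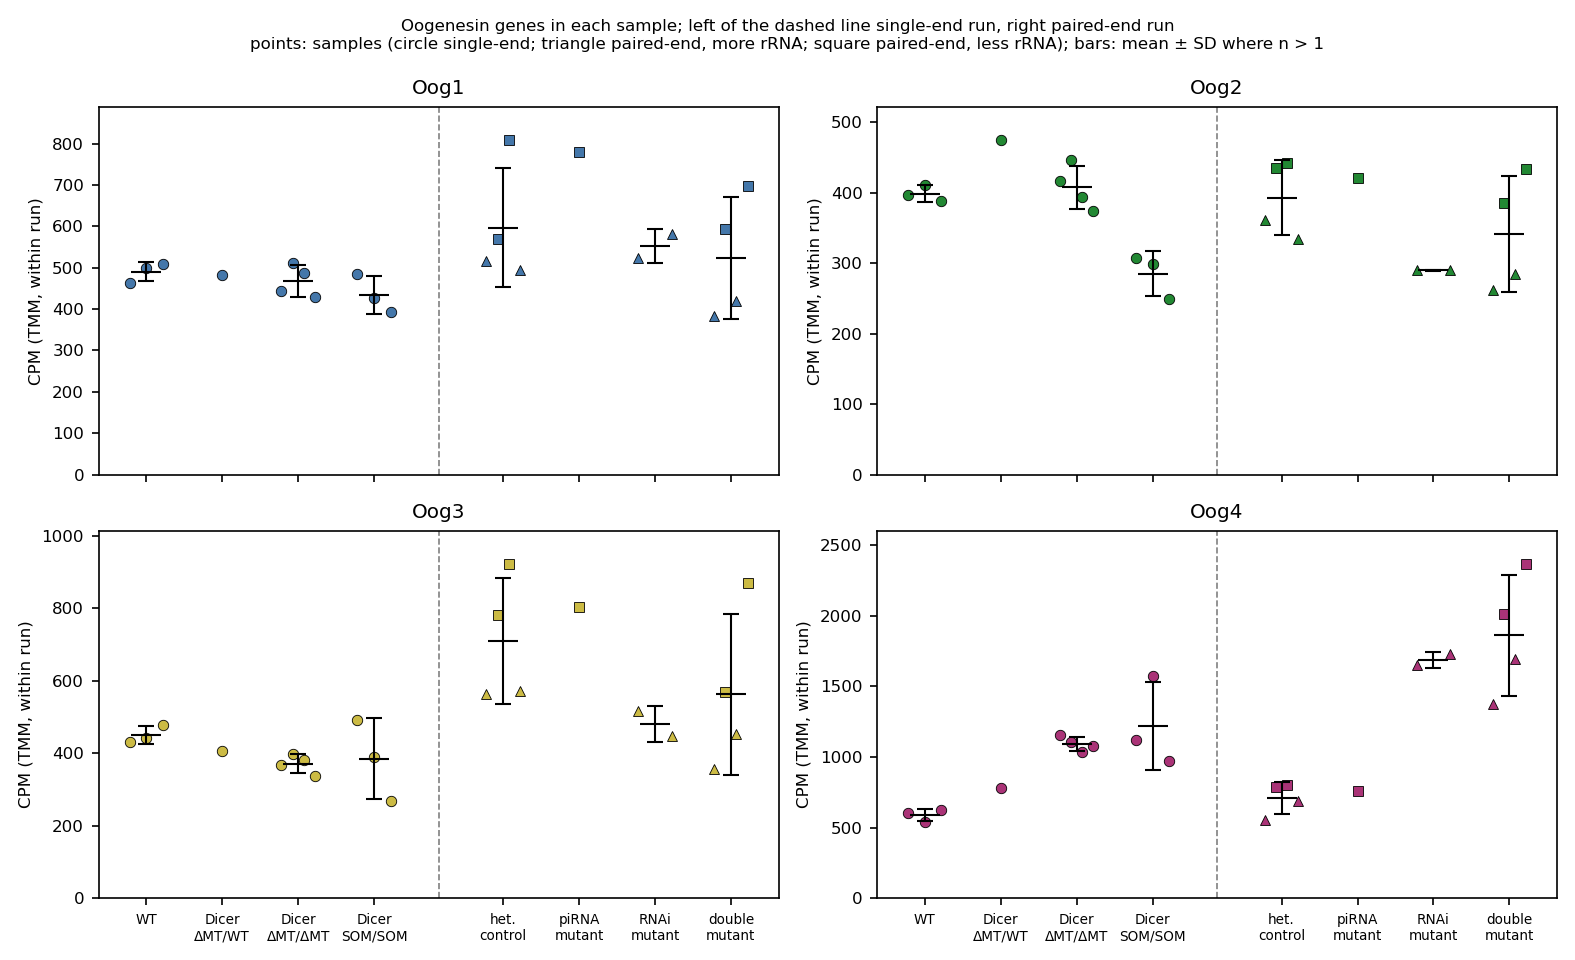
CPM (TMM-normalized within each run) of *Oog1* to *Oog4* in each of the 22 samples, by genotype, with mean and SD where a group has more than 1 sample. *Oog4* lies between 542 and 626 CPM in wild type and between 968 and 1571 in SOM/SOM, and rises from 553 to 802 in heterozygous controls to 1371 to 2364 in double mutants, while the other members overlap between most groups.

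In ΔMT/ΔMT oocytes, *Oog4* was 1.85-fold higher than in wild type (log2 fold change 0.89, SE 0.14, edgeR quasi-likelihood test with Benjamini-Hochberg adjustment over all tested genes, adjusted p = 0.00179). *Oog4* was the 1 of 4 members called in this comparison, where 15.4% of 23151 genes were called (8.06% higher and 7.3% lower), and *Oog4* ranked 2251 from the top by log2 fold change. In SOM/SOM oocytes, *Oog4* was 2.07-fold higher than in wild type (log2 fold change 1.05, SE 0.15, edgeR adjusted p = 3.97e-04). Both comparisons share the same 3 wild-type samples. Between the homozygous mutants, *Oog4* did not pass the test: the log2 fold change of SOM/SOM over ΔMT/ΔMT was 0.16 with a 95% interval from -0.14 to 0.47 (edgeR adjusted p = 0.522). Without SOM/SOM replicate 2, the highest *Oog4* sample of the run, that value was -0.06. Without replicates 1 and 3, whose *Gm42418* was high, it was 0.53 (edgeR adjusted p = 0.0151), a value that rests on replicate 2 alone as the only SOM/SOM sample, which the fit assumes to vary like the other groups.

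In RNAi mutants, *Oog4* was 2.38-fold higher than in heterozygous controls (log2 fold change 1.25, SE 0.19, edgeR adjusted p = 7.13e-04), in a comparison where 10.7% of 20989 genes were called (7.07% higher and 3.64% lower). In double mutants, it was 2.62-fold higher than in the same controls (log2 fold change 1.39, SE 0.17, edgeR adjusted p = 4.33e-05), where 21.2% of genes were called (12.3% higher and 8.84% lower). *Oog4* was the 1 member called in each. The double mutants and the RNAi mutants did not differ in *Oog4* beyond the spread between samples, with a log2 fold change of 0.14 and a 95% interval from -0.29 to 0.57 (edgeR adjusted p = 0.9997). That interval leaves room for a change of up to 1.49-fold, and among the libraries with more rRNA alone the log2 fold change was -0.12. No member was called from RNAi mutants to double mutants by edgeR, none had an unadjusted p under 0.05, and 0.314% of all genes were called (0.31% higher and 0.00476% lower).

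Within a genotype, *Oog4* was lower in the paired-end libraries with more rRNA. It was at 553 and 691 CPM in the heterozygous controls with more *Gm42418* and at 788 and 802 in those with less, and at 1371 and 1689 against 2013 and 2364 in the double mutants. Among the libraries with more rRNA alone, the log2 fold change of *Oog4* was 1.44 in RNAi mutants and 1.33 in double mutants (edgeR adjusted p = 0.000259 and 0.000303), and among those with less it was 1.47 in double mutants (edgeR adjusted p = 0.00138). By age, *Oog4* was at 691 and 802 CPM in heterozygous controls of up to 20 weeks and at 553 and 788 in older ones, and at 1689 and 2364 against 1371 and 2013 in double mutants, so the ages overlapped in both genotypes.

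**Figure D3:**
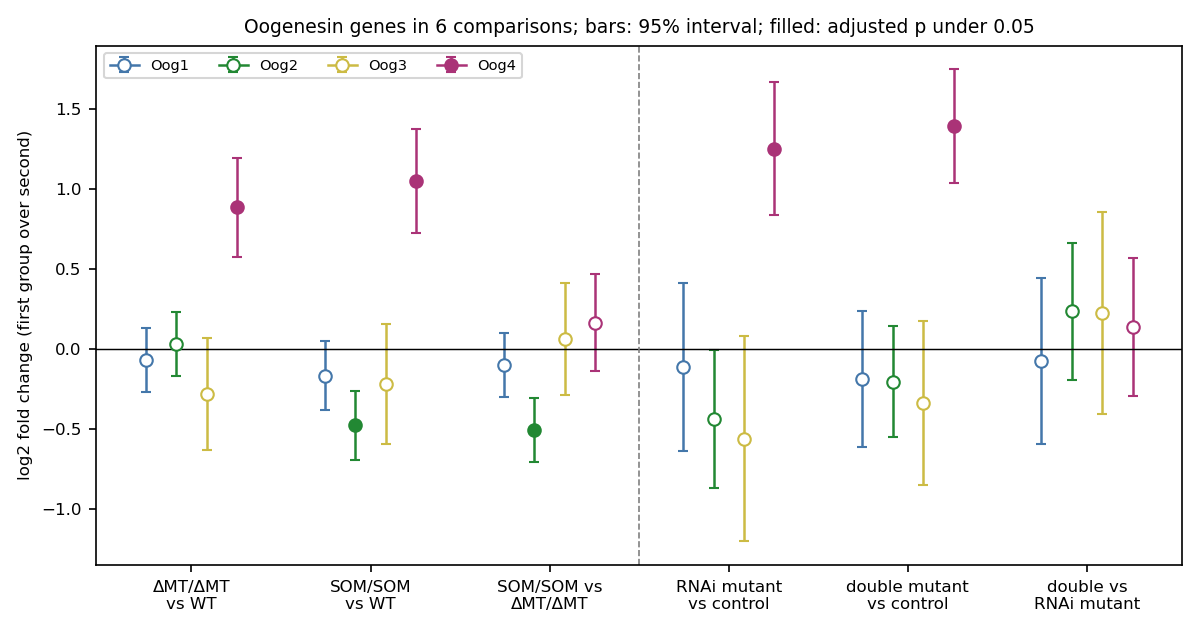
Log2 fold change of each oogenesin gene in the 6 comparisons, with its 95% interval (edgeR). The intervals of *Oog4* lie above 0 in the 4 comparisons of a mutant with its control group (0.58 to 1.19, 0.72 to 1.38, 0.84 to 1.67 and 1.03 to 1.75), and *Oog2* lies below 0 in SOM/SOM against wild type and against ΔMT/ΔMT.

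*Oog2* mRNA was lower in SOM/SOM oocytes than in wild type and than in ΔMT/ΔMT. It was at 397, 411 and 388 CPM in wild type, at 416, 446, 394 and 374 in ΔMT/ΔMT and at 307, 299 and 248 in SOM/SOM. The 3 SOM/SOM samples lay below all others of the run, but the share of all tested genes parted in this way was not counted. Against wild type, the level was 0.718 of the control value (log2 fold change -0.48, SE 0.10, edgeR adjusted p = 0.00408), and against ΔMT/ΔMT 0.704 (log2 fold change -0.51, SE 0.09, edgeR adjusted p = 0.00818). With *Oog4* this made 2 of 4 members called in SOM/SOM against wild type, where 28.6% of genes were called (14.5% higher and 14.2% lower), and *Oog2* was the 1 of 4 called against ΔMT/ΔMT (7.35% of genes, 4.03% higher and 3.32% lower). ΔMT/ΔMT did not differ from wild type in *Oog2* by the test (log2 fold change 0.03, 95% interval -0.17 to 0.23, edgeR adjusted p = 0.870).

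*Gm42418* was high in 2 of the 3 SOM/SOM libraries, and across the 11 single-end libraries *Oog2* had a Pearson r of -0.74 with it (log2 CPM, a description). In SOM/SOM replicate 2, whose *Gm42418* (4760 CPM) was below that of wild type, *Oog2* was at 299 CPM. With that library as the only SOM/SOM sample, assumed to vary like the other groups, the log2 fold change of *Oog2* was -0.40 against wild type and -0.44 against ΔMT/ΔMT (edgeR adjusted p = 0.0247 and 0.0480).

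In the paired-end run, *Oog2* was at 361, 434, 442 and 334 CPM in heterozygous controls, at 290.3 and 289.6 in RNAi mutants and at 262, 385, 285 and 434 in double mutants. Both RNAi mutants were below every control, while the double mutants overlapped with the controls. How many of all tested genes part the RNAi mutants from the controls in this way was not counted. For *Oog2* the log2 fold change came to -0.44 in RNAi mutants (SE 0.20, edgeR adjusted p = 0.203) and -0.20 in double mutants (SE 0.16, edgeR adjusted p = 0.425), and neither passed the test. Both RNAi mutants belong to the libraries with more rRNA, in which *Oog2* was lower also within the controls (334 and 361 against 434 and 442 CPM) and within the double mutants (262 and 285 against 385 and 434). Among the libraries with more rRNA alone, its log2 fold change was -0.26 in RNAi mutants and -0.32 in double mutants (edgeR adjusted p = 0.138 and 0.0652).

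*Gm13084*, the closest copy of *Oog2*, was lower by nearly the same amount in the single-end run. Its log2 fold change was -0.47 in SOM/SOM against wild type and -0.48 against ΔMT/ΔMT (SE 0.09 and 0.08, edgeR adjusted p = 0.00230 and 0.00616), and it shares reads with *Oog2*. *Gm7201*, the other copy, was far lower in level (60.7 ± 2.81 CPM in wild type and 50.8 ± 13.2 in SOM/SOM, SD, n = 3 each) and was not called in any of the 6 comparisons. Summed over *Oog2* and its 2 copies, the level was 1325 ± 51.9 CPM in wild type (SD, n = 3) and 957 ± 96.3 in SOM/SOM (n = 3). *Oog2* made up 29.7% to 30.3% of this sum in wild type and 29.4% to 30.4% in SOM/SOM, and *Gm13084* made up most of the rest. In the paired-end run *Oog2* was 17.4% to 20.8% of the sum over all groups. *Gm13100* and *Gm13058*, which share less than 1% of the *Oog2* windows, were lower in SOM/SOM (log2 fold change -0.95 and -1.40), RNAi mutants (-1.03 and -0.70) and double mutants (-0.61 and -0.55, all called), and *Gm13058* also in ΔMT/ΔMT (-0.84).

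*Oog3* mRNA did not pass the test in any comparison. Its samples lay below the control group without overlap in 2 of them, but the share of all tested genes that did not overlap there was not counted. It was at 431, 443 and 478 CPM in wild type, at 368, 398, 383 and 337 in ΔMT/ΔMT and at 493, 391 and 269.7 in SOM/SOM. The ΔMT/ΔMT samples were all below wild type, and those of SOM/SOM spread widely around both. For *Oog3* the log2 fold change came to -0.28 in ΔMT/ΔMT (95% interval -0.63 to 0.07, edgeR adjusted p = 0.266) and -0.22 in SOM/SOM (-0.59 to 0.16, edgeR adjusted p = 0.371). With only the wild-type and ΔMT/ΔMT samples in the fit, the same *Oog3* difference passed the test (-0.28, edgeR adjusted p = 0.0206), as it did without SOM/SOM replicate 3 (edgeR adjusted p = 0.0487). Without SOM/SOM replicate 1, the *Oog3* difference of SOM/SOM from wild type was -0.44 (edgeR adjusted p = 0.0484).

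In the paired-end run, *Oog3* was at 564, 781, 922 and 573 CPM in heterozygous controls, at 516 and 447 in RNAi mutants and at 357, 569, 453 and 871 in double mutants. Both RNAi mutants, which belong to the libraries with more rRNA, were below every control, and the double mutants overlapped with the controls. For *Oog3* the log2 fold change came to -0.56 in RNAi mutants (95% interval -1.20 to 0.08, edgeR adjusted p = 0.283) and -0.34 in double mutants (-0.85 to 0.17, edgeR adjusted p = 0.364). Without double mutant 4, the highest of its group, the latter was -0.63 (edgeR adjusted p = 0.0393). *Oog3* was at 564 and 573 CPM in the controls with more rRNA against 781 and 922 in those with less, and at 357 and 453 against 569 and 871 in the double mutants. *Gm13088* and *Gm13103*, with which it shares about 1% of its windows, were lower in SOM/SOM than in wild type (log2 fold change -0.63 and -0.64) and than in ΔMT/ΔMT (-0.67 and -0.68, all called).

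*Oog1* mRNA, the member known from early embryos, was not called in any comparison. It was at 464, 498 and 508.5 CPM in wild type, at 443, 512, 488 and 430.2 in ΔMT/ΔMT and at 484, 427 and 392 in SOM/SOM, so all groups overlapped. In the paired-end run, it was at 516, 569.9, 808 and 495 CPM in heterozygous controls, at 523 and 581 in RNAi mutants and at 383, 594, 419 and 698 in double mutants, again with overlap. For *Oog1* the log2 fold change came to -0.07 in ΔMT/ΔMT (95% interval -0.27 to 0.13), -0.17 in SOM/SOM (-0.38 to 0.05), -0.11 in RNAi mutants (-0.63 to 0.41) and -0.19 in double mutants (-0.61 to 0.23), with edgeR adjusted p between 0.230 and 0.845. As nearly all *Oog1* reads are divided with its copies, these intervals describe the shared signal and set no limit on a change of *Oog1* alone.

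Of the copies of *Oog1*, *Gm10436* was lower in SOM/SOM than in wild type (log2 fold change -0.35, SE 0.10, edgeR adjusted p = 0.0204) and than in ΔMT/ΔMT (-0.35, SE 0.09, edgeR adjusted p = 0.0440), and *Gm2042*, *C87977* and *Gm13023* were not called in any comparison. Over *Oog1* and its 4 copies the level was 2718 ± 89.3 CPM in wild type (SD, n = 3), of which *Oog1* made up 17.7% to 18.3%.

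Over the 4 members, the median log2 fold change against wild type was -0.02 for ΔMT/ΔMT and -0.19 for SOM/SOM (0.01 and 0.02 over all tested genes), -0.02 between these mutants (0.01), -0.28 in RNAi mutants and -0.20 in double mutants against heterozygous controls (-0.02 and 0.00) and 0.18 from RNAi mutants to double mutants (0.01). The other 3 members lay near or below 0 in the comparisons that called *Oog4*, so these medians do not describe it.

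The make-up of the oogenesin mRNAs therefore shifted toward *Oog4*. *Oog4* made up 31.5% ± 1.74 of the summed RPKM of the 4 members in wild type (SD, n = 3), 47.8% ± 2.06 in ΔMT/ΔMT (n = 4) and 53.3% ± 5.96 in SOM/SOM (n = 3). It made up 30.3% ± 2.75 in heterozygous controls (n = 4), 57.3% ± 1.21 in RNAi mutants (n = 2) and 57.9% ± 2.25 in double mutants (n = 4). Control groups ended at 33.8% and homozygous *Dicer* mutants began at 46.0%. As a ratio within a library, this share is not moved by the scaling between libraries. Its size does depend on the gene lengths and the counting, as the *Oog1* and *Oog2* parts hold reads divided with their copies. In the double mutants the share was 58.9% and 60.2% in the libraries with more rRNA and 57.6% and 55.0% in those with less, which did not overlap. In the heterozygous controls the sets did overlap, with 28.5% and 33.8% against 31.2% and 27.7%.

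**Figure D4:**
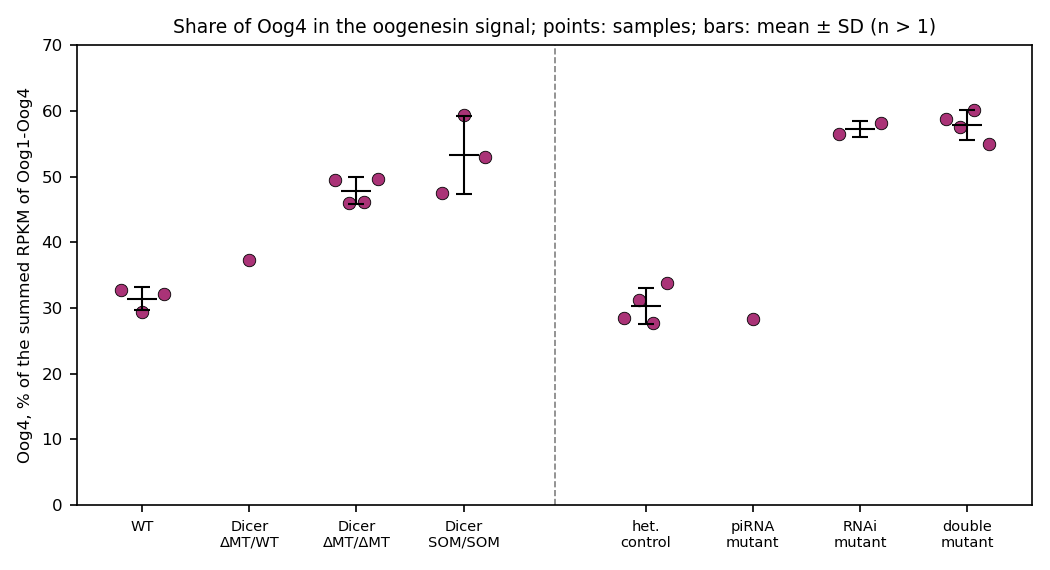
*Oog4* in percent of the summed RPKM of the 4 oogenesin genes in each sample, by genotype, with mean and SD where a group has more than 1 sample. Wild type (29.5% to 32.7%) and heterozygous controls (27.7% to 33.8%) lie below all homozygous *Dicer* mutants (46.0% to 60.2%), with the *Dicer* ΔMT/WT sample at 37.3% and the piRNA mutant at 28.4%.

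The *Oog4* to *Oog3* ratio of RPKM ran from 1.15 to 1.32 in wild type and from 0.819 to 1.13 in heterozygous controls. It was 2.55 to 3.02 in ΔMT/ΔMT, 2.14 to 3.78 in SOM/SOM, 3.01 to 3.64 in RNAi mutants and 2.56 to 3.62 in double mutants. By mean RPKM, *Oog4* moved from rank 124 in wild type to 50 in ΔMT/ΔMT and 36 in SOM/SOM, and from rank 80 in heterozygous controls to 22 in RNAi mutants and 20 in double mutants.

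The genotypes with 1 sample could not be tested. In the *Dicer* ΔMT/WT sample, *Oog1* was at 482 CPM, *Oog2* at 474, *Oog3* at 406 and *Oog4* at 781. *Oog1* lay within the wild-type range, *Oog2* and *Oog4* above it and *Oog3* below it, and *Oog4* stood at 132% of the wild-type mean, below every ΔMT/ΔMT sample. In the piRNA mutant, *Oog1* was at 779 CPM, *Oog2* at 421, *Oog3* at 803 and *Oog4* at 761, each within the range of the heterozygous controls and at 130.4%, 107%, 113% and 107% of their mean.

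Across libraries, *Oog1*, *Oog2* and *Oog3* varied together and *Oog4* did not follow them. In the paired-end run, Pearson's r of log2 CPM over the 11 libraries was 0.82 between *Oog1* and *Oog2*, 0.87 between *Oog1* and *Oog3* and 0.95 between *Oog2* and *Oog3*, but -0.13, -0.31 and -0.28 between each of these and *Oog4*. In the single-end run the values were 0.69, 0.81 and 0.42 among the first 3 members and -0.44, -0.39 and -0.36 with *Oog4*. These are descriptions over libraries that share their genotypes and depth, and in the paired-end run the first 3 members had an r of -0.80, -0.90 and -0.85 with *Gm42418*.

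The genes whose pattern was most like that of a member, by the smaller r of both runs among 9698 genes, differed between the members. For *Oog4*, they were *Gm4985* (r = 0.975 in the single-end and 0.968 in the paired-end run), *Exosc9* (0.967 and 0.985), a core subunit of the RNA exosome, and *Pphln1* (0.962 and 0.972), a subunit of the HUSH silencing complex. Their log2 fold changes, which this choice of genes ties to those of *Oog4*, were 2.36, 1.11 and 1.33 in SOM/SOM and 1.76, 0.94 and 1.29 in double mutants. For *Oog1* they were its copy *Gm2042* (0.993 and 0.922), *Rab14* (0.875 and 0.856) and *Hnrnpc* (0.851 and 0.882), and for *Oog2* its copy *Gm13084* (0.988 and 0.957), *Rab2a* (0.920 and 0.930) and *Tmtc3* (0.937 and 0.919). For *Oog3* they were *Nuf2* (0.903 and 0.904), which encodes a kinetochore protein, *Vdac3-ps1* (0.894 and 0.905) and *Gm42756* (0.891 and 0.895). Each r is over 11 libraries that share their genotype groups.

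Of the 47 other PRAME-like genes, 37 were tested in the single-end run and 38 in the paired-end run. In ΔMT/ΔMT against wild type 7 were higher and 2 lower (24.3% called, against 15.4% of all tested genes), and in SOM/SOM 9 were higher and 14 lower (62.2%, against 28.6%). Between these mutants 1 was higher and 6 lower in SOM/SOM (18.9%, against 7.35%). The number called in ΔMT/ΔMT fell from 9 to 3 without any 1 of the wild-type samples, and that between the mutants from 7 to 3 without any 1 of the wild-type samples or SOM/SOM replicate 3 and to 1 without ΔMT/ΔMT replicate 1, 2 or 3. Against heterozygous controls, 8 were higher and 2 lower in RNAi mutants (26.3%, against 10.7%; 5 called without RNAi mutant 2) and 10 higher and 3 lower in double mutants (34.2%, against 21.2%), while none was called from RNAi mutants to double mutants by edgeR (1 at an unadjusted p under 0.05). The family thus held genes that moved like *Oog4* and genes that moved like *Oog2*. Its median log2 fold change was 0.04, -0.01, -0.08, -0.08, 0.20 and 0.18 in these comparisons. How far the relatives divide reads among themselves was not measured, so the called genes are not separate observations. Some relatives called higher passed the filter only through mutant groups, so the counts and shares called are tied to the filter. From wild type to SOM/SOM, the means of *Gm16427* and *Gm3106* fell in step (12.2 ± 0.690 to 6.83 ± 1.24 and 14.7 ± 0.640 to 8.50 ± 1.69 CPM, SD, n = 3 each). Those of *Pramef17* and *Gm13128* rose in step (12.9 ± 0.263 to 28.4 ± 12.5 and 7.99 ± 0.450 to 17.4 ± 7.38 CPM). Their lowest SOM/SOM samples, at 14.7 and 9.28 CPM, were near wild type.

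**Figure D5:**
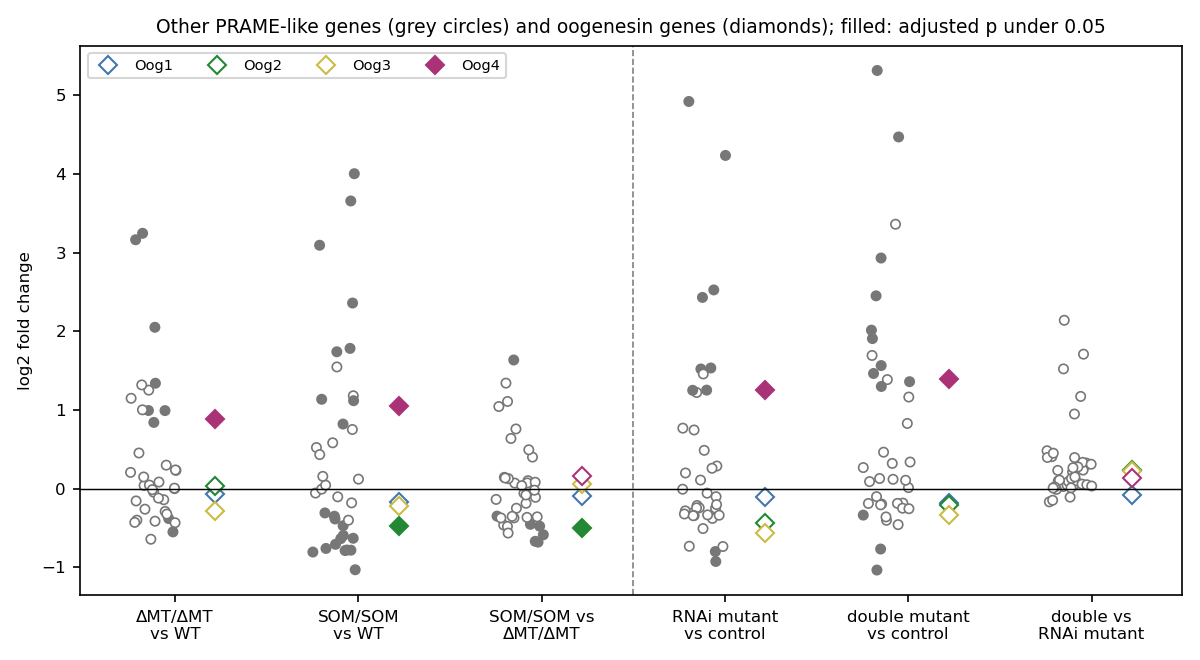
Log2 fold change of the tested PRAME-like genes (points, filled where the adjusted p was under 0.05) and of the 4 oogenesin genes in each comparison. *Oog4* lies among the called genes above 0, where *Pramef25* reaches 5.32 in double mutants, and *Oog2* among those below 0 in SOM/SOM.

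Most of these relatives were far less abundant than the oogenesins. Their median was 0.290 RPKM in wild type and 0.273 in heterozygous controls, and 26 of 47 were below 1 RPKM in each. In wild type 6 of them, and in heterozygous controls 8, lay above the lowest member. The highest were *Gm13084* (456 RPKM in wild type and 846 in heterozygous controls), *Pramef12* (349.8 and 304) and *Gm13023* (299 and 395). *Pramef12* and *Gm13023* were not called in any comparison.

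The relatives with the largest called rises over a control group were low in every group. The filter keeps a gene that reaches its minimum in enough samples of any group. *Gm13119* and *Pramef25* (0.0857 and 0.0925 CPM in wild type) and *Gm13078* (0.0906) passed it only through mutant groups where they were higher. The size of their rises, and their place among the relatives called higher, is therefore tied to the filter. In the paired-end run, *Gm7942* and *Pramel5* (0.0954 and 0.169 CPM in heterozygous controls) also passed it only through mutant groups. *Gm13119* had log2 fold changes of 3.25 in ΔMT/ΔMT, 4.0 in SOM/SOM, 4.24 in RNAi mutants and 4.47 in double mutants, from 0.0857 CPM in wild type to 1.52 in SOM/SOM and from 0.152 CPM in heterozygous controls to 3.44 in double mutants. *Pramef25* (3.16, 3.66, 4.92 and 5.32) and *BC080695* (2.05, 3.09, 2.53 and 2.93) were higher in the same comparisons. Between SOM/SOM and ΔMT/ΔMT the largest called were *Gm13078* (1.64), *Gm13103* (-0.68) and *Gm13088* (-0.67). *Oog4*, at 298 RPKM in wild type and 358 in heterozygous controls, was more abundant in these groups than any relative called higher in a mutant.

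By chromosome, the relatives called higher were mostly on chromosome 4, where *Oog4* lies, as do 23 of the 37 or 38 tested relatives. In SOM/SOM against wild type, 8 of 23 tested genes on chromosome 4 were higher and 6 lower, whereas on chromosome 5 it was 1 higher and 7 lower of 13. Over all tested genes, 14.5% were higher and 14.2% lower. In RNAi mutants 7 and in double mutants 8 of 23 on chromosome 4 were higher and none was lower by edgeR. On chromosome 5, of 14, it was 1 higher and 2 lower in RNAi mutants and 2 higher and 3 lower in double mutants. Over all tested genes, 7.07% and 12.3% were higher and 3.64% and 8.84% lower. The difference between the chromosomes was not tested. Relatives that passed the filter only through mutant groups are among those counted, so the counts of higher and lower genes are tied to the filter.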

How the data were processed

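RNA-seq of 22 GV oocyte samples was analysed from the table of estimated counts that the authors deposited. STAR 2.5.3a (per the submitters' processing notes) placed the reads on the mouse genome (mm10), multimappers included, and the authors assigned them to GENCODE M15 genes with featureCounts, ignoring strand and dividing a read between its places and genes. These expected counts are not normalized and many are not whole, so a gene and its copies, or a gene and its antisense partner, share reads. Total counts were 6468380 to 90713013 in the single-end run and 22928936 to 43540806 in the paired-end run, and the members had at least 1727 counts in every sample.

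Counts were rounded and tested in R 4.3.3 with edgeR 4.0.16 (TMM, filterByExpr with min.count 10 and min.total.count 15 on groups of at least 2 samples, quasi-likelihood test, Benjamini-Hochberg adjustment over all tested genes at 0.05). The runs, which differ in read type and instrument, were fitted apart, on 23151 genes of 10 samples and 20989 genes of 11 samples. The lone *Dicer* ΔMT/WT sample did not enter the fit, and the lone piRNA mutant entered it without a test. On simulated data, with 200 genes shifted by 1.5 log2 units, the test recovered 177 for SOM/SOM against wild type (22541 genes) and 184 for double mutants against controls (20239 genes). CPM are TMM-scaled within a run and RPKM use the gene length in the table. Log2 CPM for correlations had a prior count of 2.

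The members and lists were chosen with earlier results of these data known. Genes were named by rule: the 4 members, *Dicer1* and *Piwil2*, genes that share transcript windows with a member, the 3 PRAME-like genes with the highest RPKM, up to 3 called PRAME-like genes per comparison with the largest change, and the 3 genes most alike to each member among genes with at least 5 CPM in both runs. *Gm42418* was added after the values were seen. *Gm16427*, *Gm3106*, *Pramef17* and *Gm13128* fall outside the rule and are given only as examples of genes that moved together. PRAME-like genes are the 47 genes with a GENCODE (14) or RefSeq symbol that starts with Pramel or Pramef, 1 antisense gene included. Transcript windows and coding sequences came from GENCODE M21, promoters from RefSeq. Alternatives were DESeq2 1.42.0, its size factors in edgeR, no filter, only the groups compared, a replicate block, an age term, animals of 20 weeks or younger, copies summed, other lengths or library sizes, rRNA sets parted at 1000 CPM of *Gm42418*, and each sample left out.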

Additional observations from a re-analysis of the deposited data

Results flagged for a closer look

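The *Dicer* ΔMT/WT sample, of which there was 1 and which entered no comparison, stood above the wild-type range for 2 members. *Oog2* was at 474 CPM there, against 388 to 411 CPM in the 3 wild-type samples, and *Oog4* was at 781 CPM, against 542 to 626 CPM. *Dicer1* was at 718 CPM in this sample and at 1014 ± 29.7 CPM in wild type (SD, n = 3). With 1 sample, neither difference has a test. In the groups of 4 samples (ΔMT/ΔMT, heterozygous controls and double mutants), no member had a sample that stood apart from the others by Dixon's criterion.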

How the results depend on the processing

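The 4 calls of *Oog4* and the 2 calls of *Oog2* passed the threshold under every alternative that could be fitted. Of 670 values under alternatives, 615 kept their direction and their side of the threshold (counts of genes within 1.5 times), 0 lost a call, 7 gained one, 19 changed sign and 29 moved further. The log2 fold change of *Oog4* ran from 0.84 to 0.93 in ΔMT/ΔMT, from 0.82 to 1.42 in SOM/SOM, from 1.15 to 1.48 in RNAi mutants and from 1.25 to 1.51 in double mutants. That of *Oog2* in SOM/SOM ran from -0.54 to -0.39 against wild type and from -0.57 to -0.42 against ΔMT/ΔMT. Where a value changed, the cause was not tested.

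With only wild type and ΔMT/ΔMT in the fit, 2 members and 15 PRAME-like genes were called between them, with *Oog3* at -0.28, and the same 2, 15 and -0.28 came without SOM/SOM replicates 1 and 3. Without those libraries, which leaves SOM/SOM replicate 2 alone in its group and assumed to vary like the others, 2 members (*Oog4* at 0.53) and 4 relatives were called between SOM/SOM and ΔMT/ΔMT, and 1 relative with only these groups in the fit. With only the libraries with more rRNA, 2 members were called in double mutants (*Oog3* at -0.46, adjusted p = 0.0466), and with only those with less, 6 relatives. *Oog1* in RNAi mutants was at 0.19 with an rRNA term and 0.13 with more rRNA only. From RNAi mutants to double mutants, *Oog1* was at 0.028 with an age term and 0.10 with copies summed, and with an rRNA term or more rRNA only *Oog2* was at -0.021 and -0.0598, *Oog3* at -0.19 and -0.22 and *Oog4* at -0.10 and -0.12. The rRNA alternatives and the coding length were chosen after the values were seen. With the coding length, wild type held 329, 279, 299.8 and 392 RPKM of *Oog1* to *Oog4*, and heterozygous controls 400.4 of *Oog1*, 275 of *Oog2* and 469.6 of *Oog4*. Copies could not be summed for *Oog3* and *Oog4*, which have none at 95% identity.

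Leaving out each sample gave 1 to 2 called members in ΔMT/ΔMT against wild type (2 without SOM/SOM replicate 3, *Oog3* adjusted p = 0.0487), 2 to 3 in SOM/SOM (3 without SOM/SOM replicate 1, *Oog3* at -0.44, adjusted p = 0.0484) and 1 to 2 in double mutants (2 without double mutant 4, *Oog3* at -0.63, adjusted p = 0.0393). The relatives called were 3 to 13 in ΔMT/ΔMT (3 without any 1 of the wild-type samples), 1 to 9 between SOM/SOM and ΔMT/ΔMT and 5 to 10 in RNAi mutants (5 without RNAi mutant 2, where the lone sample is assumed to vary like the other groups). In ΔMT/ΔMT, *Oog2* lay between -0.015 and 0.068 and *Oog3* between -0.32 and -0.24, and in SOM/SOM against wild type *Oog3* lay between -0.44 and -0.022. Between SOM/SOM and ΔMT/ΔMT, *Oog3* lay between -0.16 and 0.26 and *Oog4* between -0.064 and 0.30. *Oog1* lay between -0.19 and 0.063 in RNAi mutants, between -0.36 and 0.0021 in double mutants and between -0.24 and 0.047 from RNAi mutants to double mutants, where *Oog3* lay between -0.058 and 0.39, and *Oog3* lay between -0.63 and -0.17 in double mutants.

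Same-numbered samples of different groups deviated together with an r of -0.03 to 0.05 in the single-end run (9 pairs) and -0.07 to 0.18 in the paired-end run (13 pairs). Differently numbered pairs reached 0.10 and 0.11. The paired-end numbers merge young and old animals, which the titles mark apart. By full title, double mutant 1 with control 1 was at 0.14, double mutant 2 with control 2 at 0.03 and double mutant 4 with control 3 at 0.18. The samples were fitted as unpaired, and whether full titles pair them was not tested. The replicate block used the merged numbers. With a replicate block, the log2 fold change of *Oog4* was 0.88 in ΔMT/ΔMT, 1.03 in SOM/SOM, 1.34 in RNAi mutants and 1.45 in double mutants, that of *Oog2* in SOM/SOM -0.48, and that of *Oog3* from ΔMT/ΔMT to SOM/SOM -0.0029. The replicate block changed no call of a member and gave 10, 22, 5, 7, 12 and 0 called relatives. SOM/SOM replicate 3, the library with the lowest depth, had a floor of 0.464 CPM, above the wild-type mean of *Gm13119* (0.0857 CPM).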
